A study of Mus musculus with 2 samples.

Results

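The protein part of the cytosolic ribosome was examined in spleen of newborn mice. The 92 genes described here were all protein-coding genes of both deposited gene tables, of 43346 Ensembl genes in all, whose mouse symbol starts with Rpl or Rps and a digit, together with Rpsa, Rplp0, Rplp1 and Rplp2, with the S6 kinases (Rps6k) left out. The rule uses no measured value, though earlier results of these data were known when it was chosen. They fall into 77 canonical ribosomal protein genes (46 of the large and 31 of the small subunit), 7 paralogs with an l-type name, 6 genes with a pseudogene-style name that the annotation calls protein-coding, and 2 others. The 2 others are Rps27rt, an intronless copy of Rps27, and Rps19bp1, a nucleolar protein that binds Rps19 and is not a part of the ribosome.

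Total RNA sequencing was done on whole spleens taken at postnatal day 0 from 2 pups of the B6NCrl strain, both from pregnancy 1, with 1 library for each pup. Replicate 1 came from pup 2 and replicate 2 from pup 1. Both libraries started from 10 ng of RNA longer than 200 nt with spike-in RNAs added, no treatment or genetic change is given, and sex was not collected. There is 1 group and no contrast between conditions, so values below are given for each library with no test, and an SD over n = 2 covers only the spread between littermates and library preparations. The libraries held 33122187 and 32162543 estimated counts in replicate 1 and replicate 2.

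A eukaryotic ribosome joins a large and a small subunit, and apart from the P-stalk proteins each ribosomal protein is present in a single copy in it. Most mammalian ribosomal proteins are made from 1 intron-bearing gene, and the genome also carries many intronless copies that arose from their reverse-transcribed mRNAs. The mRNAs belong to the TOP class, which start with a cytosine and a run of pyrimidines and whose translation follows mTOR signalling. The newborn mouse spleen is a site of blood formation, and in humans loss of 1 copy of any of several ribosomal protein genes causes Diamond-Blackfan anaemia, a failure of red cell production.

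All 5 fixed markers of spleen stroma and all 4 of the erythroid line were detected in both libraries, which fits the label. Summed TPM (a level per transcript length, scaled to the same total in each library) of the erythroid markers was 2092 in replicate 1 and 1865 in replicate 2, and of the neutrophil markers 11681 and 16769. Pancreatic enzyme genes, which mark a neighbouring organ, summed to 917 TPM in replicate 1 and 322 TPM in replicate 2, with 6 of 7 detected and the seventh, Pnlip, at 0.11 and 0 TPM. Adult globin genes took 27.8% of TPM in replicate 1 and 25.7% in replicate 2. In whole tissue, fewer cells of a type and less RNA per cell cannot be told apart.

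The 92 genes together held 7.47% of TPM in replicate 1 and 7.23% in replicate 2 (7.35% ± 0.171, SD, n = 2). Of estimated counts, which are not divided by transcript length, they held 3.97%. The canonical genes held 7.02% ± 0.166 of TPM (SD, n = 2), of which the large subunit held 3.91% and the small subunit 3.11%. Every one of the 77 canonical genes reached 1 TPM in both libraries, the level called detected here, against 11932 of 21474 protein-coding genes (55.6%). Their median was 824 TPM in replicate 1 and 786 TPM in replicate 2, against a median of 13.1 TPM over detected protein-coding genes. Of the 100 genes with the highest mean TPM, 31 were canonical ribosomal protein genes, and of the 200 highest, 57 were.

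Levels of the canonical genes lay close together. Their 90th percentile was 1584 TPM and their 10th percentile 329 TPM, a ratio of 4.81, where detected protein-coding genes spanned a ratio of 38.7. Within the large subunit the same ratio was 5.62 and within the small subunit 3.32. Across the 77 genes, mean TPM and mean transcript length (up to 1861 nt, median 668 nt) had a Spearman correlation of -0.33, given as a description of genes that share both libraries.

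**Figure D1:**
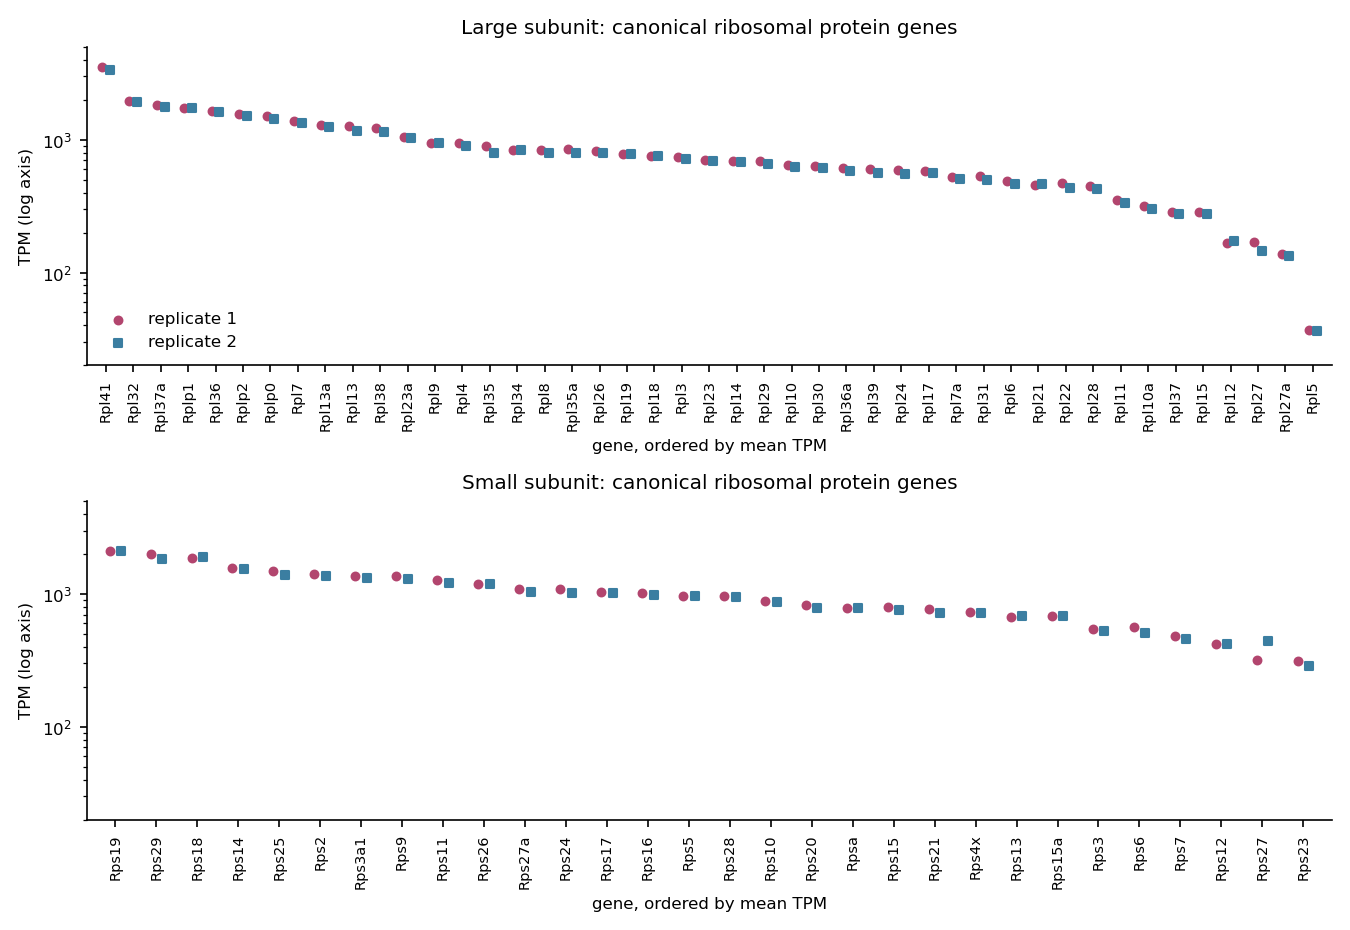
TPM of canonical ribosomal protein genes (log axis) in replicate 1 (circles) and replicate 2 (squares), ordered by mean TPM, for the large subunit (top) and the small subunit (bottom). The 10th and 90th percentiles are 329 and 1584 TPM, and a tail of large-subunit genes runs down to Rpl5 at 36.4 TPM.

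The highest member was Rpl41, a very short basic peptide of the large subunit, at 3539 TPM in replicate 1 and 3375 TPM in replicate 2. Rps19, the gene most often mutated in Diamond-Blackfan anaemia, followed at 2094 TPM in replicate 1 and 2126 TPM in replicate 2. Rps29, a small zinc-binding protein of the small subunit, had 2003 TPM in replicate 1 and 1846 TPM in replicate 2. Close to Rps29 were Rpl32 (1957 and 1909 TPM in replicate 1 and replicate 2), Rps18 (1856 and 1897 TPM) and Rpl37a (1838 and 1769 TPM). Rpl41 and Rps19 were the highest of these in both libraries, while Rps29 was above Rpl32 and Rps18 in replicate 1 and below both in replicate 2. The rest of the 12 highest were Rplp1, Rpl36, Rps14, Rplp2, Rplp0 and Rps25, with means from 1451 to 1729 TPM.

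The P-stalk, which recruits translation factors to the ribosome, is built from Rplp0 and dimers of Rplp1 and Rplp2. Rplp1 had 1735 TPM in replicate 1 and 1724 TPM in replicate 2. Rplp2 had 1555 TPM in replicate 1 and 1512 TPM in replicate 2, and Rplp0 1515 TPM in replicate 1 and 1446 TPM in replicate 2. All 3 stood among the 12 highest members, and the mRNA of the single-copy anchor Rplp0 was close in level to those of the proteins that are present in more copies.

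Rpl5 and Rpl11 form with 5S rRNA the particle that binds and inhibits Mdm2 when ribosome assembly fails. Rpl11 had 353 TPM in replicate 1 and 333 TPM in replicate 2, among the 10 lowest canonical genes. Rpl5 had 36.7 TPM in replicate 1 and 36.03 TPM in replicate 2, the lowest of the 77 and the only one of them under 100 TPM. The other canonical genes at the low end were Rpl27a (138 and 133 TPM in replicate 1 and replicate 2), Rpl27 (171 and 145 TPM), Rpl12 (168 and 173 TPM), Rpl15 (284 and 277 TPM), Rpl37 (288 and 276 TPM), Rps23 (315 and 289 TPM), Rpl10a (316 and 300.2 TPM) and Rps27 (320.0 and 440 TPM). The 18 listed genes known to be mutated in Diamond-Blackfan anaemia in humans ran from Rpl5 at the low end to Rps19. All 18 are canonical genes and were detected, as were all 77 canonical genes. Their median of mean TPM was 816 TPM, against 805 TPM over the canonical genes.

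Products of the same ribosome whose symbols escape the naming rule had levels inside the canonical range. Rack1, a scaffold on the small subunit, had 753 TPM in replicate 1 and 730.2 TPM in replicate 2. Fau, a ubiquitin-like fusion with a small-subunit protein, had 675 TPM in replicate 1 and 653 TPM in replicate 2.

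The threshold of 1 TPM in both libraries split the paralogs. Rps27l, Rpl36al, Rpl22l1 and Rpl7l1 were detected in both libraries, and Rpl3l, Rpl39l and Rpl10l were not. Of all protein-coding genes, 55.6% were detected. Rpl7l1 was the lowest of the detected paralogs, at 54.4 TPM in replicate 1 and 52.9 TPM in replicate 2. Rpl3l lay at the threshold, under it in replicate 1 (0.92 TPM) and over it in replicate 2 (1.12 TPM). The genes not detected in both libraries are known for restricted expression elsewhere, Rpl3l in striated muscle and Rpl39l and Rpl10l in the male germ line. Of the fixed markers of those sources, 2 of 4 for striated muscle and 0 of 5 for testis or germ line were detected, with Tnp1 and Prm2 listed at 0.

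Rps27l, a p53-responsive paralog of Rps27, had 559 TPM in replicate 1 and 506 TPM in replicate 2, while its parent Rps27 had 320.0 TPM in replicate 1 and 440 TPM in replicate 2. Rps27l thus stood at 1.75 times the parent in replicate 1 and 1.15 times in replicate 2. Another gene, Rps27rt, has a coding sequence with 0 differences from Rps27 over its whole length, and was given 1431 TPM in replicate 1 and 1452 TPM in replicate 2. With the TPM of such copies added to the parent, Rps27l stood at 0.319 times the parent in replicate 1 and 0.267 times in replicate 2. Rps27l was above its parent when each gene was taken alone and below it when the copies were counted with the parent. The deposited model of Rps27 was as long as its coding sequence, and that of Rps27rt was 370 nt.

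The first 150 coding bases of the trio are shown because Rps27l differs from both other genes and these do not differ from each other. They were read from GENCODE M21 transcripts, 5′ to 3′, and capitals mark bases that differ from the parent. Rps27 lies at chr3:90212522-90213651 (minus strand), Rps27rt at chr9:114982366-114982739 (minus strand) and Rps27l at chr9:66946086-66949516 (plus strand), all on mm10. The stretch of Rps27rt is the same as that of Rps27 and is printed once. Rps27l differed from Rps27 at 35 of these 150 bases and at 61 bases of the whole coding sequence.
Rps27 and Rps27rt: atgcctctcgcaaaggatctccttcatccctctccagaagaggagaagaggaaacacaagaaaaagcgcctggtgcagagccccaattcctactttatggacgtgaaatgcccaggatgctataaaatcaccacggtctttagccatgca
Rps27l: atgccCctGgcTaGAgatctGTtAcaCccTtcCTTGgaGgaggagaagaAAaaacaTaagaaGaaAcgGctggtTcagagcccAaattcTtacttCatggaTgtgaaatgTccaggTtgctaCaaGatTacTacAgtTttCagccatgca

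Rpl36al, an autosomal paralog of the X-linked Rpl36a, had 527 TPM in replicate 1 and 506 TPM in replicate 2. Rpl36a had 615 TPM in replicate 1 and 580.0 TPM in replicate 2, so the paralog stood at 0.858 and 0.872 times its parent in replicate 1 and replicate 2. The ratio differed little between the libraries, and adding copies to the parent left it at 0.849 and 0.861. The first 150 coding bases of this pair, shown because its levels were the most alike, differ at 23 positions, marked by capitals in the paralog.
Rpl36a: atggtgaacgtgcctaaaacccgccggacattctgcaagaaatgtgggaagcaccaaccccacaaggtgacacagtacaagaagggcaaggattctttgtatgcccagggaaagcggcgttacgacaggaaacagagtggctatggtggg
Rpl36al: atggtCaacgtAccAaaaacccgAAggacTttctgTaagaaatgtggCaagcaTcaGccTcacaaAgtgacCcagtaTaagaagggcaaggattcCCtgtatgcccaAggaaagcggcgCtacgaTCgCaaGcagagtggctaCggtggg

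Rpl22l1, known from zebrafish to oppose Rpl22 in the emergence of blood stem cells, had 286 TPM in replicate 1 and 266 TPM in replicate 2. Rpl22 had 469 TPM in replicate 1 and 432 TPM in replicate 2. The paralog stood at 0.610 times its parent in replicate 1 and 0.617 times in replicate 2. Its coding sequence shares 66.9% of aligned bases with Rpl22, against 87.9% for Rpl36al and Rpl36a and 76.1% for Rps27l and Rps27. Transcripts annotated as not protein-coding held 51.4% of the Rpl22l1 level.

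Rpl7l1, found in human cells in large subunits under assembly, had 54.4 TPM in replicate 1 and 52.9 TPM in replicate 2, or 0.0394 and 0.0398 times Rpl7 in replicate 1 and replicate 2. Rpl3l had 0.92 TPM in replicate 1 and 1.12 TPM in replicate 2, from 28 and 31 counts, and Rpl39l had 0.67 TPM in replicate 1 and 0.19 TPM in replicate 2, from 15 and 4 counts. Rpl10l was listed at 0 in each library. The limit for a count of 0, taken as 3 counts, was 0.103 TPM in replicate 1 and 0.109 TPM in replicate 2, or 0.0160% and 0.0175% of Rpl10 in replicate 1 and replicate 2. Such limits cover counting error only.

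**Figure D2:**
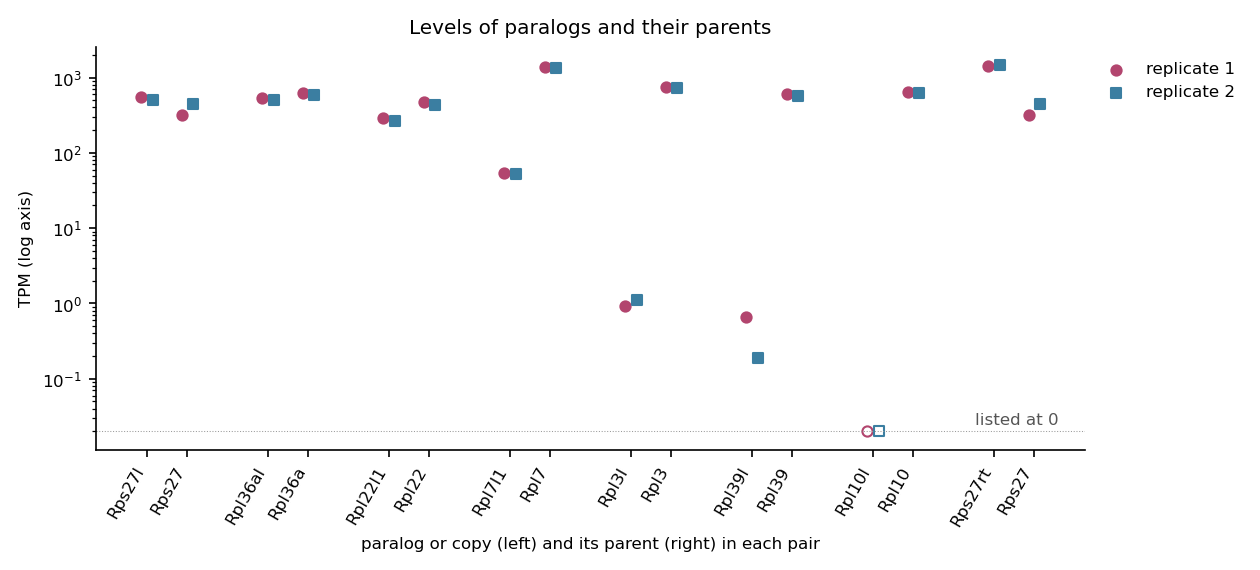
TPM (log axis) of each l-type paralog, and of the copy Rps27rt, beside its parent, in replicate 1 (circles) and replicate 2 (squares); open symbols mark Rpl10l, listed at 0. Rps27l and Rps27rt lie above Rps27, Rpl36al and Rpl22l1 lie just under their parents, and the other paralogs lie far under theirs.

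Copies of canonical genes elsewhere in the genome were also given TPM. Annotated pseudogenes, the pseudogene-named members, Rps27rt and Rps19bp1 were matched to the canonical coding sequences by blastn. A match needed 90% identity over at least 50% of the sequence, and the l-type paralogs were not entered. This gave 707 copies of 73 parents, of which 156 were detected. Their summed TPM equalled 28.1% of the canonical TPM in replicate 1 and 28.3% in replicate 2. Of estimated counts, the copies held a mean of 0.685% and the canonical genes 3.85%. TPM is divided by model length, so a copy with a shorter model than its parent gets more TPM from the same reads. This applies to all shares and ratios of copies given in TPM below. A set of 31 copies of at least 100 TPM held 93.0% of the copies' TPM, and 28 of these 31 are annotated as pseudogenes. Of the 31, 20 had 100% identity to the parent over the aligned part and 28 had at least 99%, while the median identity of copies under 1 TPM was 94.4%.

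Copies exceeded their parent in 13 of the 77 families and held less than 1% of the family in 21. For Rpl5, a single processed copy, Gm15500 at chr7:114705217-114706235 (minus strand), was given 592 TPM in replicate 1 and 585 TPM in replicate 2, which is 16.1 and 16.2 times the parent. It matches the whole 894-base coding sequence of Rpl5 with 0 differences. Copies held 94.2% of the Rpl5 family in each library. Rps23-ps1 at chr3:37714740-37715164 (plus strand) was given 1798 TPM in replicate 1 and 1645 TPM in replicate 2, or 5.71 and 5.70 times Rps23. Gm7536 at chr3:24333068-24333511 (plus strand) was given 819 TPM in replicate 1 and 780 TPM in replicate 2, or 5.95 and 5.87 times Rpl27a. These 3 had the highest level over the parent among the 28 pseudogenes of at least 100 TPM, and are shown for that reason. The ratios are of TPM and also carry differences in model length. Rps23 was quantified on 756 nt, longer than the span of Rps23-ps1. The first 120 coding bases of each parent are printed below, from GENCODE M21 transcripts, and those of the copy are identical in all 3 pairs.
Rpl5 and Gm15500: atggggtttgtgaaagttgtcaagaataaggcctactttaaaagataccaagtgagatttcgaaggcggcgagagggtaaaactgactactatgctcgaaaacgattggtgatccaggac
Rps23 and Rps23-ps1: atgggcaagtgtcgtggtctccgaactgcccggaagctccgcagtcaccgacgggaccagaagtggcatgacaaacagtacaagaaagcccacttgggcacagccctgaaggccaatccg
Rpl27a and Gm7536: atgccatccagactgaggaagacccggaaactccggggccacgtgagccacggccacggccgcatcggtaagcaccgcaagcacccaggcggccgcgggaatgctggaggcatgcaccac

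Other families with most of their level in copies were Rpl27, with copies at 87.8% in replicate 1 and 89.0% in replicate 2, Rps27 (81.7% and 76.8%), Rpl37 (75.2% and 74.6%), Rpl12 (74.2% and 71.4%), Rpl15 (73.8% and 74.0%), Rps12 (69.3% and 69.6%), Rpl28 (58.8% and 58.5%), Rpl31 and Rpl10a. Of the 10 lowest canonical genes, 9 had most of their family's TPM in copies, Rpl11 being the exception, against 13 of all 77. The 10 were picked by low parent TPM, which also enters this share. The choice itself therefore favours a high count, which is no test of a link. With copies added, the ratio of 90th to 10th percentile over the canonical genes was 3.09 (1916 over 620.0 TPM), against 4.81 without them, and the median was 1063 TPM. The Rpl5 family then had 629 TPM in replicate 1 and 622 TPM in replicate 2, and the Rps29 family stood highest, at 3677 TPM in replicate 1 and 3459 TPM in replicate 2, of which Gm14303 was given 1672 and 1611 TPM. The deposited counts are estimates, and reads that match a gene and its copy equally cannot be told apart, so the single levels of these parents and copies are uncertain. Whether any copy is transcribed was not tested.

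**Figure D3:**
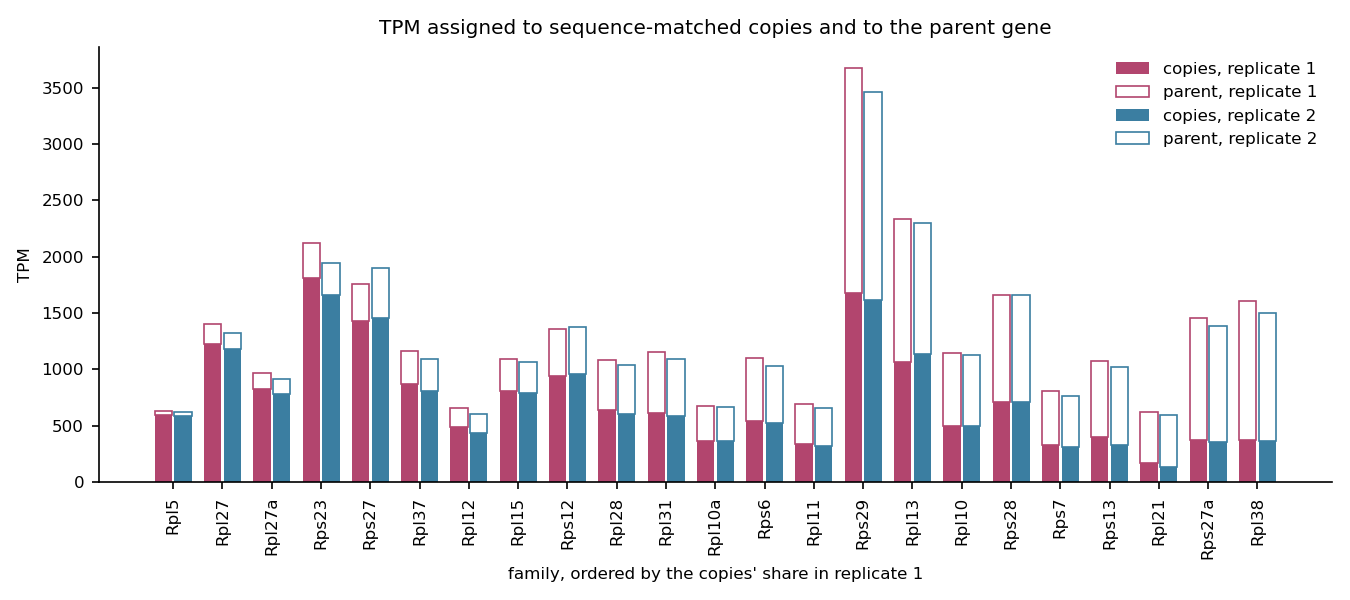
TPM of copies (filled) and parent (open) stacked for 23 families with at least 20% of their level in copies, left bar replicate 1 and right bar replicate 2. Copies make up nearly all of the Rpl5 bar (94.2%) and most of those of Rpl27, Rpl27a, Rps23 and Rps27.

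Of the 6 pseudogene-named members, 4 were detected. Rpl10-ps3 had 258 TPM in replicate 1 and 285 TPM in replicate 2, and Rps12-ps3 115 TPM in replicate 1 and 86.2 TPM in replicate 2. Rpl9-ps6 had 36.4 TPM in replicate 1 and 41.4 TPM in replicate 2, and Rpl36a-ps1 6.39 and 6.91 TPM. Rpl9-ps1 and Rpl36-ps4 were listed at 0. These genes, with Rps27, had the least certain division of reads: the posterior SD of the estimated count in replicate 1 was 13.7% of the count for Rpl36a-ps1, 9.80% for Rpl9-ps6, 8.504% for Rps27, 7.34% for Rpl10-ps3 and 6.28% for Rps12-ps3, against 0.0705% for Rpl41. Rps19bp1 had 29.2 TPM in replicate 1 and 28.2 TPM in replicate 2.

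The canonical genes had nearly the same ratio between the 2 littermates. After TMM scaling their log2 ratio of replicate 1 over replicate 2 had a median of 0.20, and 74 of 77 lay within 0.1 of it. The median absolute deviation was 0.03, against 0.18 over all 15499 genes that averaged 20 counts or more, and 28.9% of all genes lay within 0.1 of their own median. Among 6017 genes averaging 1000 counts or more, 40.4% did. The median ratio of that set was 0.08, against -0.01 over all genes. The ratio was above 0 for 76 of 77 canonical genes, and for 48.9% of all genes.

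No member differed by 1.5-fold or more in either direction, of 88 that passed the count filter. Over all genes tested, 2.54% passed that threshold toward replicate 1 and 4.56% toward replicate 2. The highest ratios were those of Rps12-ps3 (log2 ratio 0.56), Rpl27 (0.37) and Rpl35 (0.30), and the lowest that of Rps27 (-0.32), followed by Rpl3l (-0.08) and Rpl9-ps6 (-0.04). Rps27 was the 1 canonical gene that went the other way, with 1573 counts in replicate 1 and 2040 in replicate 2. With the counts of copies added, its family's ratio was 0.06, that of Rpl27 was 0.24, and all 77 families were above 0.

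The height of this common ratio depended on scaling. The canonical median was 0.20 by TMM, 0.20 by DESeq2 size factors, 0.10 by library size, 0.25 by spike-in totals and 0.05 in deposited TPM, where 68 of 77 genes were higher in replicate 1. The distance to the median of all genes was between 0.19 and 0.20 in every one of these. TMM, DESeq2 size factors, library size and spike-in totals each move all genes by nearly the same amount. Their agreement on this distance was therefore set in advance, and only deposited TPM, at 0.19, could differ. By TMM, genes averaging 1000 counts or more had a median of 0.08, nearer to the canonical median than that of all genes. The erythroid markers had a median log2 ratio of 0.37 and the pancreatic ones of 1.77, and those of neutrophils (-0.36), red pulp macrophages (-0.46), B lineage cells (-0.37) and spleen stroma (-0.31) were lower in replicate 1. The part of these cell types in the ribosomal protein ratio was not tested.

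**Figure D4:**
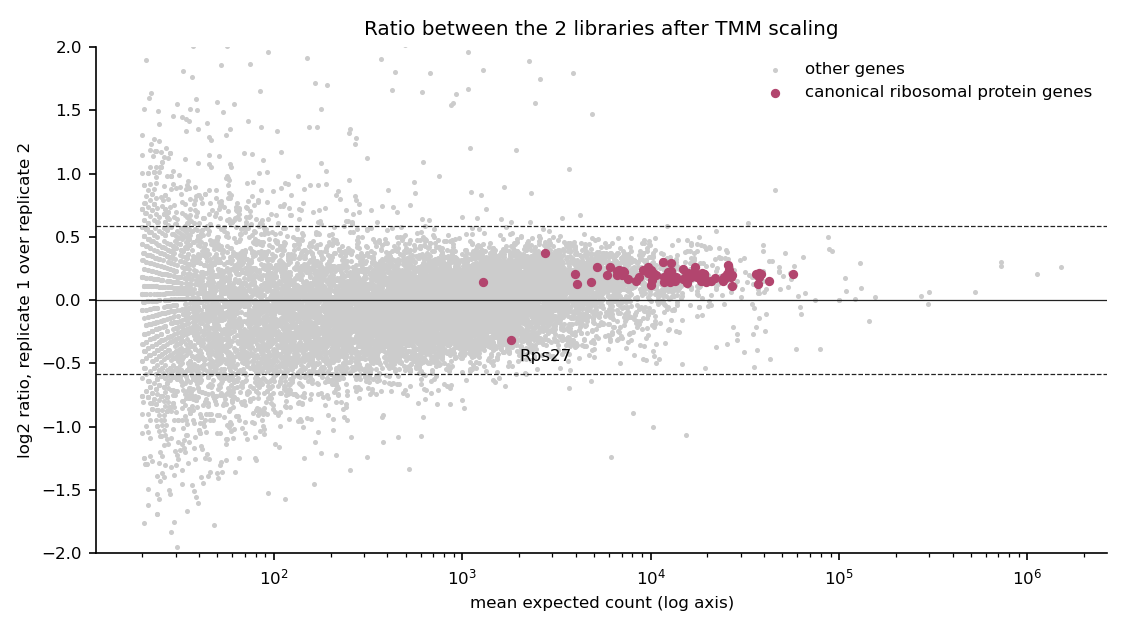
Log2 ratio of replicate 1 over replicate 2 after TMM scaling against mean estimated count (log axis), canonical ribosomal protein genes over all other genes averaging 20 counts or more; dashed lines mark 1.5-fold, and 31 other genes lie beyond the axis limit of 2. The canonical genes form a narrow band near 0.20, with Rps27 at -0.32.

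Mitochondrial ribosomal proteins and ribosome assembly factors had median ratios near that of the canonical genes. Log2 ratios of single genes ran from -0.15 to 0.74 in the first list and from -0.08 to 0.33 in the second. Those of the canonical genes ran from -0.32 to 0.37, with 74 of 77 within 0.1 of the median. All 77 mitochondrial ribosomal protein genes were detected, at a median of 63.2 TPM, with a median log2 ratio of 0.18 and 1 gene, Mrpl23, past 1.5-fold toward replicate 1. Their highest members were Mrpl52 (301 and 271 TPM in replicate 1 and replicate 2), Mrpl17 (222 and 235.4 TPM) and Mrps21 (211 and 201 TPM). All 30 matched ribosome biogenesis genes were detected, with a median ratio of 0.19, led by the nucleolar proteins Npm1 (812 and 765 TPM in replicate 1 and replicate 2) and Ncl (357 and 324 TPM) and the snoRNP core protein Nop56 (198 and 178 TPM). Other TOP mRNAs, mainly translation factors, had a median ratio of 0.10. Their highest members were the elongation factor Eef1a1 (2427 and 2585 TPM in replicate 1 and replicate 2), Tpt1 (1062 and 1064 TPM) and the poly(A)-binding protein Pabpc1 (559 and 560.3 TPM).

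The listed regulators of TOP mRNA translation had a median of 14.1 TPM, against 292 TPM for the listed translation factors and other TOP mRNAs. The translation repressor Eif4ebp1 had 106 TPM in replicate 1 and 114 TPM in replicate 2, Myc 99.6 and 84.5 TPM, and Eif4ebp2 49.95 and 53.4 TPM, and the list's median ratio was 0.09. Among 7 matched genes of ribosome rescue and recycling, Hbs1l (43.2 and 38.9 TPM in replicate 1 and replicate 2), Abce1 (40.5 and 39.5 TPM) and Gtpbp2 (35.9 and 35.9 TPM) were highest, and the median ratio was 0.15. In these 5 lists, Mrpl23 was the only gene past 1.5-fold.

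At transcript level, 90.2% of the canonical TPM was in protein-coding transcripts, 4.32% in processed transcripts, 3.45% in retained-intron transcripts and 0.411% in transcripts annotated for nonsense-mediated decay. A further 1.64% was in transcript models without a counterpart in GENCODE M21, and Rpl13a was the only gene with over 10% there. The median gene had 0.461% in noncoding transcripts, and 14 of 77 had at least 10%. Rpl35 had 95.3% in replicate 1 and 95.1% in replicate 2, nearly all from the processed transcript Rpl35-203. Rps20 had 94.9% ± 0.0817 (SD, n = 2), mostly from the retained-intron transcript Rps20-201. Rpl12 (76.9% and 81.2%), Rpl23 (68.8% and 70.2%) and Rpl5 (59.6% and 61.0%) followed. These are shares of TPM, which is divided by model length. Of estimated counts, noncoding transcripts held a lower mean share in each of these genes. It was 90.9% for Rpl35, 71.5% for Rps20, 69.1% for Rpl12 and 59.98% for Rpl23. For Rpl5 it was 38.3%, below the 46.7% of Rps18, so most Rpl5 counts were in coding transcripts.

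The classes are labels of transcript models. With short reads, a model that shares most of its exons with a coding one can be given its reads, and how much of these shares comes from unspliced RNA was not tested. Rps24, whose last exons are alternatively spliced, had 829.6 TPM in replicate 1 and 766.2 TPM in replicate 2 for Rps24-201, and 260.0 and 245.4 TPM for Rps24-202.

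**Figure D5:**
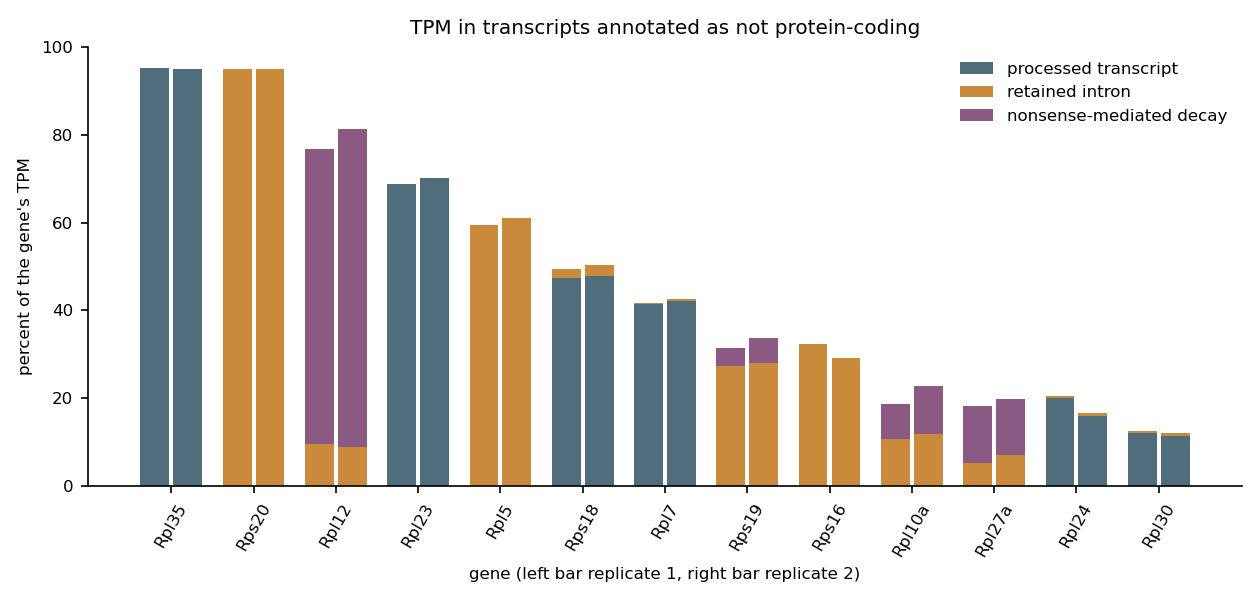
Percent of a gene's TPM in transcripts annotated as processed transcript, retained intron or nonsense-mediated decay, for 13 of the canonical genes with at least 10%, left bar replicate 1 and right bar replicate 2. Rpl35 and Rps20 stand near 95%, and the 2 libraries are close for every gene shown.

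Ribosomal protein genes are known hosts of small nucleolar RNAs, which are cut from their introns. An annotated snoRNA lay inside the span of 30 of the 77 canonical genes (39.0%), against 202 of 11932 detected protein-coding genes (1.69%). There were 58 such snoRNAs, among them 5 in Rpl4 and 4 in Rpl13a. This is a property of the annotation and not of the libraries, in which RNA under 200 nt was not collected.

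Annotated starts were compared with the TOP signature, a C at the first base followed by 4 bases that are each C or T. RefSeq (GRCm38.p6) gave a start for 57 of the 77 canonical genes. Where a gene had several starts, only the first listed was read, so the shares below can miss genes that meet the signature elsewhere. The signature was met at the start base by 12 of 57 (21.1%), against 2.22% of 16317 protein-coding genes, and somewhere within 5 bases of it by 26 (45.6%), against 19.0%. At the start base it was met by 0 of 7 paralogs and 0 of 68 mitochondrial ribosomal protein genes with a start. Within 5 bases it was met by 2 of 7 (28.6%) and 15 of 68 (22.1%). Of the listed translation factors and other TOP mRNAs, 7 had a start. The signature was met by 1 of these (14.3%) at the start base and by 3 (42.9%) within 5 bases. In a list of 7 genes, 0 cannot be told from a low share. Only the sense strand was read. The windows of 6 of the 12 genes are printed below with the start base as the sixteenth base, 5′ to 3′ on the gene's strand, and capitals mark the pyrimidine run from the start on. They were chosen to cover both subunits, the stalk and genes discussed above.
Rplp2, chr7:141447636-141447665 (plus): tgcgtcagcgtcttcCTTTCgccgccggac
Rpl15, chr14:18270972-18271001 (minus): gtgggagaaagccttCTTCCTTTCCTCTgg
Rpl35, chr2:39005117-39005146 (minus): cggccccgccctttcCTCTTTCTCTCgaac
Rps6, chr4:86857353-86857382 (minus): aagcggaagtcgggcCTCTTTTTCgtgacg
Rps18, chr17:33955651-33955680 (minus): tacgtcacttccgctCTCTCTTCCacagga
Rps27, chr3:90213634-90213663 (minus): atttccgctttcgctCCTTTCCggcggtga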

How the data were processed

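Spleens of 2 newborn littermates were sequenced as total RNA. Per the text deposited with the samples, the authors quantified genes and transcripts on mm10 with GENCODE M4. The aligner, quantifier, versions and strand setting were not given in the sources used here. Tables deposited by the authors hold expected counts, TPM over all features including 97 spike-ins, and scores for the posterior SD of each count and the bounds of each TPM interval. Symbols and classes came from GENCODE M21 (42462 of 43346 gene IDs matched). Members and lists were chosen with earlier results of these data known.

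From the deposited counts, rounded to whole numbers, log2 ratios were computed with edgeR 4.0.16 (TMM, prior count 2, mean count of at least 20) in R 4.3.3, with DESeq2 1.42.0 size factors as an alternative, after a test on simulated data. Copies were matched with blastn 2.17.0, chosen after the data were seen. Named genes are the 12 highest and 10 lowest members, paralogs and parents, the stalk, Rpl5 and Rpl11, the extremes of each measure and the 3 highest of each list. Copies, coordinates, Rps24, Rps19bp1 and promoter windows were added after values were seen. A few genes that enter the sums and counts are not reported here by name.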

Additional observations from a re-analysis of the deposited data

How the results depend on the processing

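No paired analysis was possible because there is 1 group. The summed level of 7.35% of TPM became 3.97% as a share of estimated counts and 8.39% of the TPM of protein-coding genes, and leaving out a library gave 7.23% to 7.47%. The spread among all 92 members, 26.2 as 90th over 10th percentile, was 22.9 by count per length, 6.67 over detected members, 9.48 without the l-type paralogs, 4.81 over canonical genes and 3.09 with their copies added. The median paralog stood at 0.0396 times its parent, or 0.0443 by count per length. The sole reversal was Rps27l over Rps27, 1.40 from mean TPM and 0.292 with copies added to the parent. The members' median log2 ratio of 0.19 was 0.095 by library size, 0.25 by spike-in totals and 0.051 in deposited TPM. The count of members 1.5-fold apart, 0, became 1 by spike-in totals and 1 with no filter on low counts, and 2 under a looser fold threshold. Noncoding transcripts held 8.01% of member TPM and 6.27% of counts. Pseudogenes found by name held 9.64% of member TPM, or 6.69% by counts. Those found by sequence held 24.4% at 90% identity over at least 50% of the coding sequence. At 95% identity over at least 80% of it they held 24.1%. The causes were not tested beyond what each setting changes. Members detected numbered 87 and stayed within 1.5 times of that in every setting tried. Depth limits Rpl3l, Rpl39l and Rpl10l, each at 31 counts or fewer per library.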
